A study of Mus musculus with 34 samples.

Results

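The 4 intermediate sagittal fractions of the brain of a mouse aged 3 days, numbered 3, 4, 8 and 9 of 11 sagittal fractions and taken from 34 fractions in all, lie on each side between the 3 medial fractions (5 to 7) and the 4 lateral fractions (1, 2, 10 and 11). They were defined by fraction number, with earlier results of these data known. Each gene was asked whether it was higher or lower in these fractions than in both neighbouring groups on both sides. All 11 fractions came from 1 male C57BL/6J mouse, cut serially into slabs of 500 µm; fractions 1 and 11 each pool 2 cut fractions. RNA of each fraction was hybridised to 1 single-colour oligonucleotide array, and 2 other mice of the same strain, sex and age were cut into 15 coronal and 8 horizontal fractions.

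A sagittal slab cuts through everything that lies at one distance from the midline, from olfactory bulb to hindbrain. At this age the intermediate plane of a mouse brain passes through striatum, internal capsule, lateral thalamus, the cerebellar hemispheres and the roots of cranial nerves, whereas some ventricles lie at the midline and the lateral ventricles reach further out. The ventricles are lined by ependymal cells, whose motile cilia are built from dynein arms, radial spokes and tektins. The labels state neither which end of the series is left nor which fraction holds the midline, so mirrored fractions are taken here as numbers adding up to 12. With 1 mouse and 1 array per fraction, every p-value compares positions in 1 brain, and neighbouring fractions are not separate animals. In such bulk samples fewer cells of a type and less RNA per cell cannot be told apart.

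Values are the deposited log2 values, scaled within each array, so that 1 unit is a 2-fold difference and levels are compared within a probe only. Between 32316 and 37091 of 59305 spots were well above background on the sagittal arrays (33383 to 37091 on the intermediate, 34623 to 35479 on the medial and 32316 to 35141 on the lateral arrays), none was saturated, and repeated spots of a probe had a median SD of 0.058 to 0.086. Of 43199 probes, 34411 were well above background in at least 2 of the 11 fractions and were tested, and they covered 15871 genes, each then represented by its brightest probe. The intermediate and medial fractions and fraction 2 were all hybridised on 1 slide, fraction 1 on another and fractions 10 and 11 on another still.

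The intermediate fractions differed from the average of the medial and lateral means (the intermediate difference below) in 2 probes by limma with Benjamini-Hochberg adjustment, both higher there, or 0.00581% of the 34411 tested. One probe was for Frem3, a basement membrane protein of the Fras family, and the other for Gm8909, a predicted gene of the class I histocompatibility family. No probe was lower past that threshold (0%), against 1184 with an unadjusted p below 0.05 that were lower (3.44%) and 1347 that were higher (3.91%). On values alone, 3152 probes (9.16%) lay above the medial and the lateral mean on both sides and 3753 (10.9%) lay below both. In 134 probes (0.389%) the 4 intermediate values lay above all 7 others, and in 152 (0.442%) they lay below all 7. Counted as genes by their brightest probe, 1 of 15871, Gm8909, passed the test upward (0.0063%) and 0 downward (0%), since the brighter Frem3 probe is the one that missed the threshold. Gm8909 met the detection filter mostly through the group in which it was high. Of the genes, 8.19% lay above and 10.7% below both neighbours, and the values did not overlap in 76 genes above (0.479%) and 82 below (0.517%). Genes other than Frem3 and Gm8909 are therefore described by their values, and none of them passed the test.

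Frem3 had a hump on each side of the midline. Its probe past the threshold stood at -1.84, -1.75, -1.38 and -1.98 in fractions 3, 4, 8 and 9, at -2.43, -3.08 and -2.83 in fractions 5 to 7, and at -3.93, -3.82, -3.49 and -3.88 in fractions 1, 2, 10 and 11. The 4 intermediate values lay above the other 7, with the lateral values lowest. The intermediate difference was 1.54 ± 0.15 (SE, 4 against 3 and 4 fractions) on the log2 scale, with an adjusted p of 0.042 by limma. The second Frem3 probe ran alike, from -1.64 to -1.20 in the intermediate, -2.95 to -2.17 in the medial and -3.77 to -2.85 in the lateral fractions, with a difference of 1.59 and an adjusted p of 0.068 by limma. This fit takes mirrored fractions of 1 brain as independent. With mirror pairs as a random block the first probe had an adjusted p of 0.235, with pairs averaged 0.821, and 0 probes passed in either fit by limma. Without fractions 4 and 8 the first probe's difference was 1.37 with an adjusted p of 0.308, and within the slide that holds fractions 2 to 9 it was 1.57 with an adjusted p of 0.128. With single fractions left out, both probes past the threshold kept their call without fraction 3, 5 or 10, and only Gm8909 kept it without fraction 7. In the coronal series both Frem3 probes were highest in fraction 8, and in the horizontal series in fraction 5.

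The Gm8909 probe was dim. It stood at -5.08, -4.56, -4.28 and -4.55 in the intermediate fractions, at -5.56, -5.49 and -4.93 in the medial and at -6.94, -7.03, -7.26 and -7.04 in the lateral ones. Intermediate and medial values overlapped, since fraction 7 lay above fraction 3, and the probe was well above background on 3 of the 4 intermediate, 1 of the 3 medial and 0 of the 4 lateral arrays. Against the lateral arrays the intermediate level was at least 1.25-fold higher, where the bound sets a dim array at the lowest signal it held well above background. Class I genes are near-identical copies, so the gene behind this probe is uncertain.

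Under an adjusted p of 0.1 there were 10 probes, of which 6 lay above and 2 below both neighbours on both sides. Beside Frem3 and Gm8909, the ones above were 3 probes for a long noncoding transcript that the array files place at chr8:83210957-83219451 on the forward strand of mm9. The most extreme of these stood at -1.06, -0.87, -0.83 and -1.05 in the intermediate, at -1.61, -2.61 and -2.17 in the medial and at -3.43, -3.68, -2.85 and -3.17 in the lateral fractions. Its 4 intermediate values lay above all others and spread by less (SD 0.12) than the medial (SD 0.50) and lateral ones (SD 0.35). The intermediate difference was 1.75 for this probe, 1.60 for the second and 1.51 for the third, and all were highest in coronal fraction 8 and horizontal fraction 5, where Frem3 also was. The array files use another genome build than the gene table, so the distance from this transcript to Frem3 was not determined. Shox2 and Cr2 complete the set without a hump or a trough: Shox2 was highest and Cr2 lowest in the medial fractions.

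**Figure D1:**
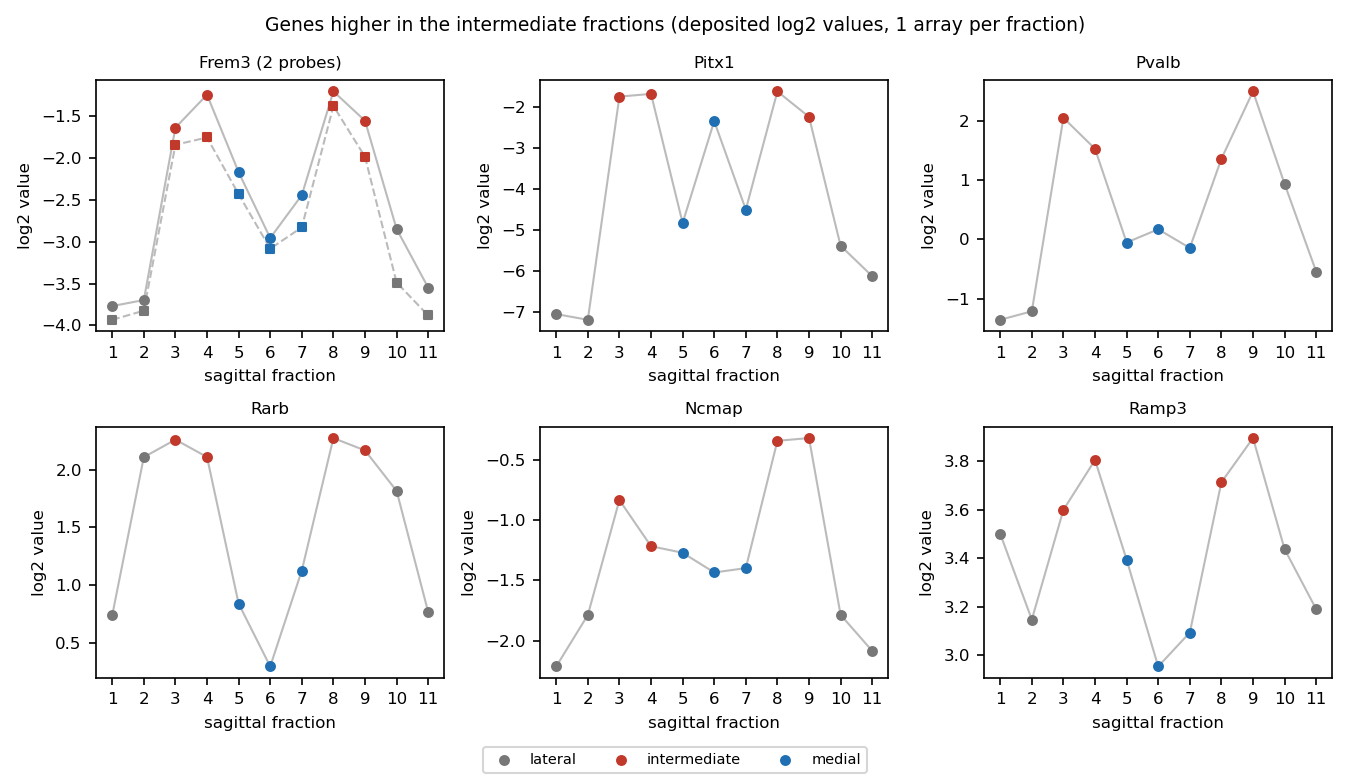
Deposited log2 values (y axis) of 6 genes in the 11 sagittal fractions (x axis), 1 array per fraction; grey points are lateral, red intermediate and blue medial fractions, and both probes of Frem3 are drawn. Every gene peaks in the red fractions on each side of the blue ones, while Rarb stays almost as high in fractions 2 and 10 and Pitx1 returns to -2.34 in fraction 6.

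The genes named next have the largest margin, the smallest of the 4 differences between an intermediate side and its medial or lateral neighbour, and were picked after the values were seen. Pitx1, a homeobox transcription factor, stood at -1.75, -1.68, -1.62 and -2.24 in the intermediate fractions and at -4.82, -2.34 and -4.50 in the medial ones, and was not well above background on any lateral array (-7.04, -7.18, -5.38 and -6.12). Intermediate values lay above all others, with fraction 6 close beneath fraction 9. Against the lateral fractions Pitx1 was at least 8.65-fold higher, and the adjusted p of its intermediate difference was 0.109 by limma.

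Pvalb, the calcium-binding protein parvalbumin of fast-spiking neurons, stood at 2.05, 1.53, 1.36 and 2.49 in the intermediate, at -0.05, 0.17 and -0.14 in the medial and at -1.35, -1.21, 0.93 and -0.54 in the lateral fractions. The intermediate values lay above all others, of which the nearest was that of fraction 10. The intermediate difference was 2.13 ± 0.41 (SE), with an adjusted p of 0.301 by limma, and both Pvalb probes had the shape. Neuropeptide genes were also among the leaders. Pth2, which encodes a parathyroid hormone family peptide, ran from -1.71 to 0.32 in the intermediate fractions, with fraction 6 at -1.51 and fraction 10 at -1.68 inside that range. Nps, the neuropeptide S gene, ran from -5.00 to -3.40 there and was well above background on 0 of the 4 lateral arrays, over which it was at least 1.75-fold higher. Nps was well above background on 1 of the 3 medial arrays, and its value of -4.96 in fraction 5 lay inside the intermediate range. It met the detection filter mostly through the group in which it was high.

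Evx1 and Lbx1, homeobox genes of hindbrain and spinal cord interneurons, were well above background on all 4 intermediate arrays but on 1 of the 4 lateral arrays each, and Lbx1 on 1 of the 3 medial ones, so their low values are near background. Evx1 stood at -1.78, -1.44, -1.23 and -1.50 in the intermediate fractions against -2.87 to -2.10 in the medial ones, and Lbx1 at -4.19, -4.80, -4.23 and -4.33 against -5.65 to -4.67. For Lbx1 the medial and intermediate values overlapped. Among the remaining leaders Ikzf1, Rarb, Slc35d3 and Pde7b were well above background on at least 3 of the 4 lateral arrays, with differences from 0.86 for Pde7b to 1.20 for Ikzf1. Krt33b, a keratin gene, was so on 0 of the 4 lateral arrays and at least 1.48-fold higher in the intermediate ones, Kdf1 on 1 and Slc36a2 on 2. Lhx8 and Isl1, transcription factors of basal forebrain cholinergic neurons, also lay above both neighbours but by little. Lhx8 stood at 1.12, 0.91, 0.68 and 0.93 in the intermediate and at 0.79, 0.80 and 0.78 in the medial fractions, which overlap, and its margin was 0.02. Isl1 had a margin of 0.34. AI606473 matched no tested probe through its accession.

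Striatal projection neurons gave the largest count of a list above both neighbours. Of 24 genes tested, 14 lay above (against 8.19% of all genes), 0 below and 10 neither, with a median intermediate difference of 0.54 against -0.01 over all 15871 genes, and 0 passed the test. Some other lists had larger medians, such as 1.15 for noradrenaline neuron genes, of which 0 of 6 lay above. Summed over the 24 genes, the level was 7.39 to 7.79 in the intermediate, 6.80 to 7.07 in the medial and 6.97 to 7.92 in the lateral fractions, highest in fraction 2. Rarb, a retinoic acid receptor, stood at 2.26, 2.11, 2.27 and 2.17 in the intermediate fractions, at 0.84, 0.29 and 1.13 in the medial and at 0.74, 2.11, 1.82 and 0.77 in the lateral ones. Its values in fractions 2 and 10 came close to the intermediate ones, and only fractions 1 and 11 were low on the lateral side.

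Tac1, the precursor of substance P, had a difference of 0.83, Drd2, the D2 dopamine receptor, 0.55 and Penk, the enkephalin precursor, 0.51. Drd1 and Adora2a, with differences of 0.54 and 0.86, were not above both neighbours on both sides, because the mean of fractions 1 and 2 exceeded that of fractions 3 and 4. The count rests on the outermost fractions. With fractions 1 and 11 left out 7 of the 24 genes lay above both neighbours, and without fraction 1 alone 8 did. Of the 14 genes, 6 were highest in coronal fraction 11 and 4 in coronal fraction 12, where 4.13% and 14.2% of all genes were.

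Thalamic neuron genes lay above both neighbours in 6 of 22 cases, against 8.19% of all genes, and below in 0. The list as a whole was not above the medial fractions: its median difference of 0.34 combined -0.06 against the medial mean, with 11 of 22 genes higher, and 0.96 against the lateral mean. Ramp3, a receptor activity-modifying protein, stood at 3.60, 3.81, 3.71 and 3.90 in the intermediate fractions, at 3.39, 2.95 and 3.09 in the medial and at 3.50, 3.15, 3.44 and 3.19 in the lateral ones. Tnnt1, a troponin gene used as a thalamic marker, stood at 0.46, 0.51, 0.49 and 0.42 against -0.10 to 0.32 elsewhere. In both genes the intermediate values lay above all others, against 0.479% of all genes, with differences of 0.52 and 0.39. Tcf7l2, the transcription factor of the whole thalamus, had a difference of 1.35 but was highest in the medial fractions.

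Oligodendrocyte lineage genes lay above both neighbours in 8 of 20 cases, against 8.19% of all genes, and below in 0. Their median difference of 0.31 combined 0.05 against the medial and 0.69 against the lateral mean. The members above were the precursor genes Pdgfra, Cspg4, Olig1, Olig2 and Nkx2-2 and the later genes Bcas1, Fa2h and Mal, and in none of them did the intermediate values stand clear of the others. Their differences ran from 0.14 for Pdgfra to 1.05 for Fa2h. The myelin gene Mobp was instead highest in fraction 7. With fractions 4 and 8 left out 4 of the 20 lay above both neighbours. Of 17 cell cycle genes 9 lay above and 1 below, against 8.19% and 10.7% of all genes, with a median difference of 0.13. Without fraction 11 only 1 of them lay above.

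Genes of Schwann cells, the myelinating glia of peripheral nerves, were listed after the values had been seen, so their count is a description of that choice. The other lists were set before that, but with earlier results of these data known. Of 11 tested, 6 lay above both neighbours and 0 below, against 8.19% and 10.7% of all genes, with a median difference of 0.59. In this list 2 genes, Mal and Sox10, also belong to the oligodendrocyte list.

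In the peripheral myelin genes Prx and Ncmap and the Schwann cell signal Dhh the intermediate values lay above all others, against 0.479% of all genes. Fraction 9 held the highest value of each. Ncmap stood at -0.83, -1.22, -0.34 and -0.32 in the intermediate fractions and between -2.21 and -1.27 in the other 7. All 6 genes above were highest in horizontal fraction 8, where 13.95% of all genes were, whereas in the coronal series 3 were highest in fraction 6, among them Prx and Ncmap, and 3, Dhh, Pmp22 and Mal, in fraction 15, where 1.58% and 19.3% of all genes were. Summed over the 11 genes, the level was 4.93, 4.79, 5.14 and 5.29 in fractions 3, 4, 8 and 9. It was 4.72 to 4.82 in the medial and 4.53 to 4.82 in the lateral fractions, so fraction 4 showed no rise. Even the 6 genes above had a mean deviation from the gene mean of -0.01 in fraction 4, against 0.61, 0.87 and 1.22 in fractions 3, 8 and 9. How much of any other difference reflects nerve tissue in these slabs was not tested.

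**Figure D2:**
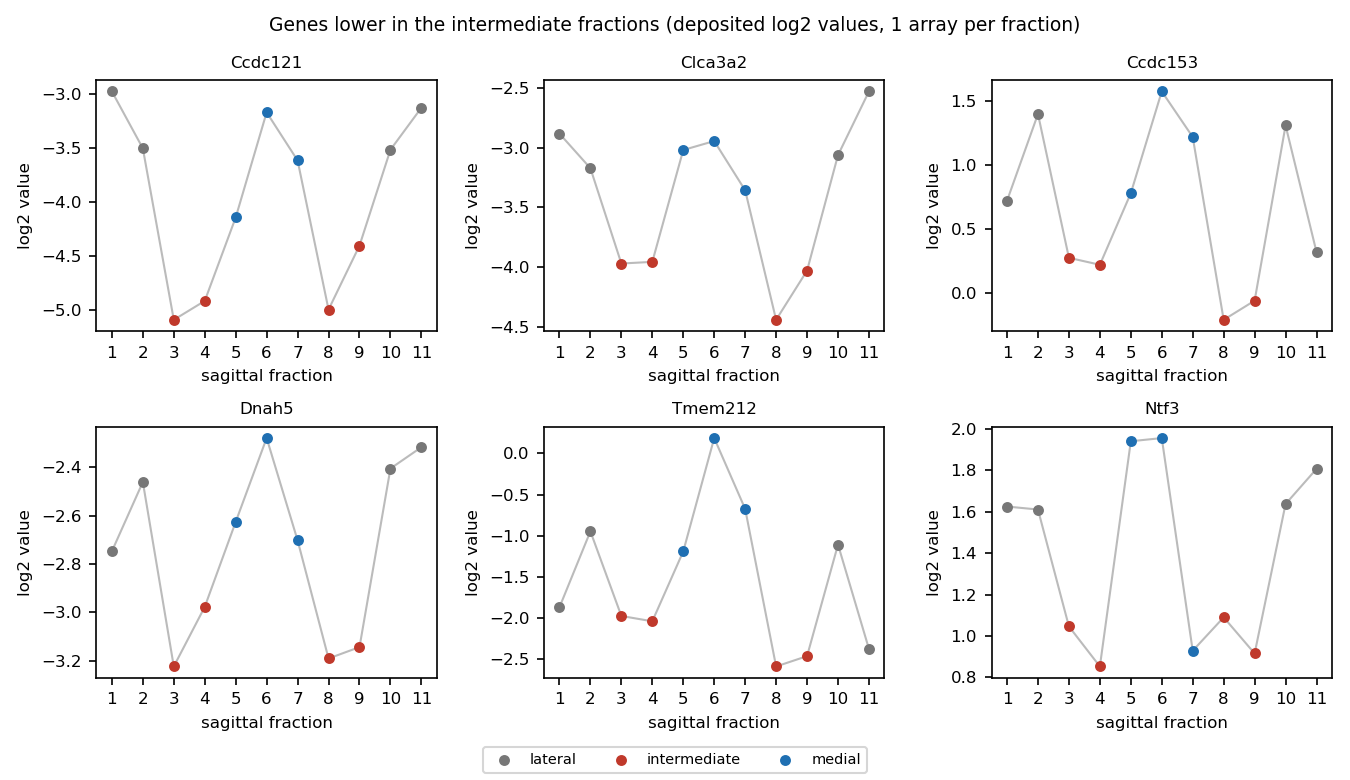
Deposited log2 values (y axis) of 6 genes in the 11 sagittal fractions (x axis), 1 array per fraction; grey points are lateral, red intermediate and blue medial fractions. Ccdc153 and Tmem212 peak in fraction 6 and again in fractions 2 and 10, and the red points form a trough on each side; for Ntf3 fraction 7 is as low as the red points.

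Genes lower in the intermediate fractions were led by Ccdc121, a coiled-coil gene. It stood at -5.09, -4.92, -5.00 and -4.40 in the intermediate fractions, at -4.14, -3.17 and -3.61 in the medial and at -2.97, -3.50, -3.51 and -3.12 in the lateral ones. In this probe, the brighter for the gene, the intermediate values lay below all others. The difference was -1.39 ± 0.20 (SE), with an adjusted p of 0.109 by limma. The probe was well above background on 2 of the 4 intermediate arrays. With normexp background correction the difference shrank to -0.35. The second Ccdc121 probe also lay below both neighbours, with a difference of -0.58 and an adjusted p of 0.637 by limma. Its intermediate values overlapped the others, with fraction 3 at -4.53 and fraction 7 at -5.25.

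Clca3a2 and its close relative Clca3a1, chloride channel accessory genes, had adjusted p values of 0.088 and 0.066 by limma. Clca3a2 stood at -3.97, -3.96, -4.44 and -4.03 in the intermediate, at -3.02, -2.94 and -3.36 in the medial and at -2.88, -3.17, -3.06 and -2.53 in the lateral fractions. Clca3a1 ran from -2.94 to -2.62 in the intermediate and from -2.33 to -1.97 in all other fractions. In both genes the intermediate values lay below all others, with differences of -1.09 and -0.67, and as paralogs the 2 probes may share signal.

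Ependymal cell genes formed the list with the largest share below. Of 10 tested, 8 lay below both neighbours and 0 above, against 10.7% below over all genes, with a median difference of -0.53, and 0 passed the test. Ccdc153, a gene of multiciliated cells, stood at 0.28, 0.22, -0.21 and -0.06 in the intermediate, at 0.78, 1.58 and 1.22 in the medial and at 0.72, 1.40, 1.31 and 0.32 in the lateral fractions. The intermediate values lay below all others, but fraction 11 lay next to fraction 3. Dnah5, an axonemal dynein heavy chain, stood at -3.22, -2.98, -3.19 and -3.14 in the intermediate fractions and between -2.75 and -2.28 in the others, with a difference of -0.62 and an adjusted p of 0.228 by limma.

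Tmem212 had the lowest difference of the list, at -1.20, and stood at 0.19 in fraction 6 against -2.59 in fraction 8. Foxj1, the transcription factor that switches on motile cilia genes, stood at 0.28, 0.30, -0.13 and -0.18 in the intermediate, at 0.24, 1.63 and 0.93 in the medial and at 0.28, 0.78, 0.70 and -0.10 in the lateral fractions. Fractions 5, 1 and 11 of Foxj1 thus overlapped the intermediate values. Dnah11, Tekt1, Rsph1 and Spag6l had differences from -0.54 to -0.33, while Hydin (-0.11) and Mia (-0.06) lay neither above nor below.

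The lateral side of this pattern rests on fraction 2: without it 3 of the 10 genes lay below both neighbours. The summed level of the 10 genes was 3.55 to 4.05 in the intermediate, 3.82 to 5.02 in the medial and 3.42 to 4.46 in the lateral fractions. In the other planes 7 of the 8 genes were highest in coronal fraction 10 and all 8 in horizontal fraction 5, where 3.09% and 7.32% of all genes were. Choroid plexus genes, whose tissue floats in the same ventricles, lay above in 0 and below in 0 of 15 cases.

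The other genes with the largest margins below included Dnali1, an axonemal dynein light chain, with a difference of -0.91. Dnali1, Lrrc43 (-0.91), Fam166b (-1.08), 1600029I14Rik (-0.89) and Fam166c (-0.75) were all highest in fraction 6, and Crygn (-1.08), a crystallin gene, in fraction 7. Of the 15 genes with the largest margins below, which were chosen on these values, 8 were highest in coronal fraction 10 and 10 in horizontal fraction 5, against 3.09% and 7.32% of all genes. Car9, a carbonic anhydrase, had a difference of -0.99, Ano2, a calcium-activated chloride channel, -0.96 and the lymphotoxin gene Ltb -0.83. Ntf3, the neurotrophin-3 gene, stood at 1.05, 0.85, 1.09 and 0.92 in the intermediate, at 1.94, 1.96 and 0.93 in the medial and at 1.63, 1.61, 1.64 and 1.81 in the lateral fractions. Fraction 7 of Ntf3 overlapped the intermediate values, so that the trough ran from fraction 7 to 9 on that side.

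X-box elements, bound by RFX factors, are common in the promoters of ciliary genes such as those of the ependymal list. GTTGCCA, letters found in part of such an element, was searched on both strands of RefSeq promoter windows (GRCm38.p6, 250 bases before to 50 after the start of a transcript). Among 22 genes, the 8 ependymal genes below and the 15 named with 1 gene in common, 17 had windows. The letters were found in 2 of their 22 windows, those of Tekt1 and Fam166c, and in 4.38% of all 32851 windows. Both windows are shown 5′ to 3′ on the strand of the gene, with the match in capitals. They lie at chr11:72361833-72362132 (minus strand, Tekt1) and chr5:30465827-30466126 (plus strand, Fam166c).
Tekt1: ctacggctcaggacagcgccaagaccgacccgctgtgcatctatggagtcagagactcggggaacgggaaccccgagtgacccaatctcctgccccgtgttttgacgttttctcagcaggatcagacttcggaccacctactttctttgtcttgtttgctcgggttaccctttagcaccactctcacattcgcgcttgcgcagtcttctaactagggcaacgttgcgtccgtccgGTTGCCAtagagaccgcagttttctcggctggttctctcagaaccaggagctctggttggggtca
Fam166c: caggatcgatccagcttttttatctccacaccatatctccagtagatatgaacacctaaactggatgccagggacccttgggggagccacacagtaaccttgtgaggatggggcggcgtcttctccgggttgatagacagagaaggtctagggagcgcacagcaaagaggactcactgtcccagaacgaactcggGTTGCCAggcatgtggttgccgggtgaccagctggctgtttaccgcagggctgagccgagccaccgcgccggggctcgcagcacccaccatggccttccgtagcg
The match begins 15 bases before the start site in Tekt1 and 55 bases before it in Fam166c. A match is a description of these letters only. GTTGCC followed by another base, as in the window of Lrrc43, did not count. Other forms of the element were not searched, so a window without a match may still hold one.

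**Figure D3:**
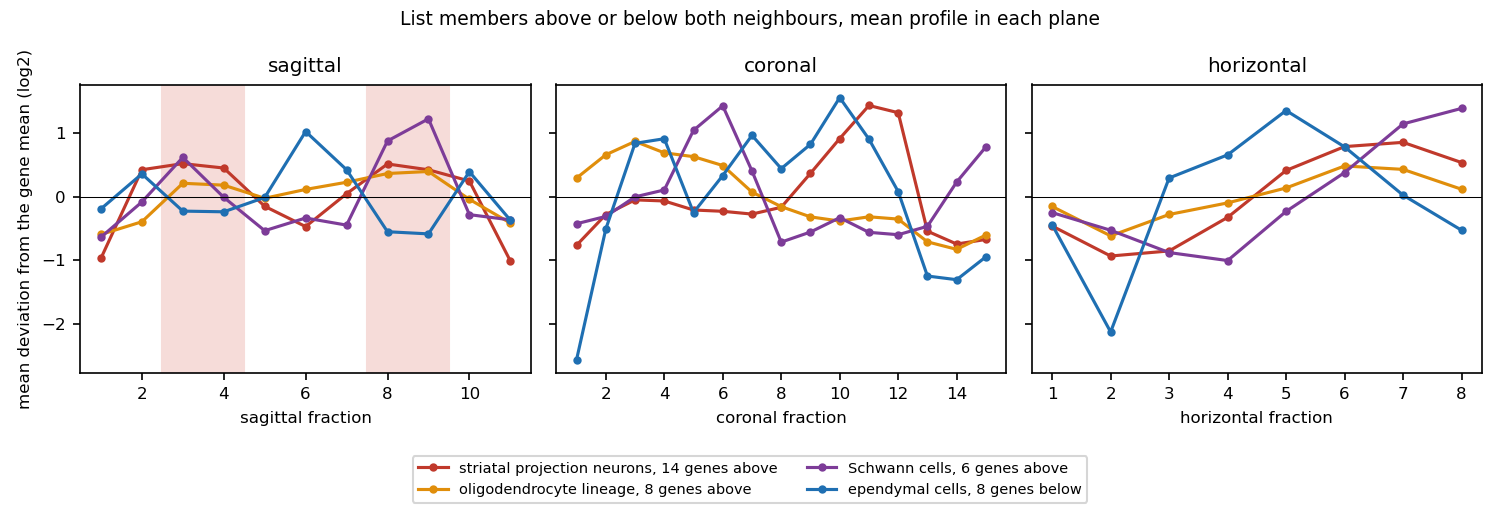
Mean deviation from each gene's mean over the fractions of a plane (y axis, log2) against fraction number (x axis) in the sagittal, coronal and horizontal series, for the striatal (14), oligodendrocyte (8) and Schwann cell (6) genes above and the ependymal genes (8) below both neighbours; intermediate sagittal fractions are shaded. The ependymal mean reaches 1.02 in sagittal fraction 6 and 0.35 and 0.39 in fractions 2 and 10, while the striatal mean is 0.42 to 0.52 in the shaded fractions and 0.42 in fraction 2.

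The other 25 lists held 344 tested entries, where a gene counts once in each list that holds it. Of these entries 26 lay above and 16 below both neighbours (7.56% and 4.65%), against 8.19% and 10.7% of all genes. At most 4 lay above and 2 below in any list. Markers of other tissues were among them. Meningeal and fibroblast genes lay above in 1 and below in 1 of 20 cases, skeletal muscle genes in 1 and 2 of 8, and red blood cell genes in 0 and 1 of 7. Hindbrain patterning genes lay above in 0 and below in 0 of 18 cases, with a median difference of 0.58.

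The same contrast was taken on each side alone. Outside the slide position described next, 608 probes had an intermediate difference of at least 1 log2 unit on the low-numbered side, and 339 of them (55.8%) had the same sign on the high-numbered side, where 56.7% of all 34184 probes had the same sign. In 96 probes the difference passed 1 unit with the same sign on both sides. By limma 0 probes had a difference between the sides with an adjusted p below 0.05 (0%), against 1005 with an unadjusted p below 0.05 (2.92%). That fit had only 1 medial array on each side and few residual degrees of freedom, so 0 calls do not show that the sides agree.

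Hox genes, which mark hindbrain and spinal cord, were offset between the sides. Fraction 9 lay above fraction 3 in all 16 Hox genes, of which 5 were well above background in fraction 3 and 16 in fraction 9. With values in fraction 3 set no lower than the lowest signal well above background there, the median difference was at least 3.42 log2 units. Fraction 8 lay above fraction 4 in all 16, by a median of at least 1.02, while fractions 7 and 5 differed by 0.07. Over all genes these pairs of mirrored fractions differed by a median of 0.01, 0.02 and -0.01. Hoxb5, for instance, stood at -5.07 and 0.84 in fractions 3 and 4 and at 1.94 and 2.05 in fractions 8 and 9. Choroid plexus genes ran the other way, with fraction 9 above fraction 3 in 0 of 15 and a median of -0.85. The part of this offset in the differences above was not tested.

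**Figure D4:**
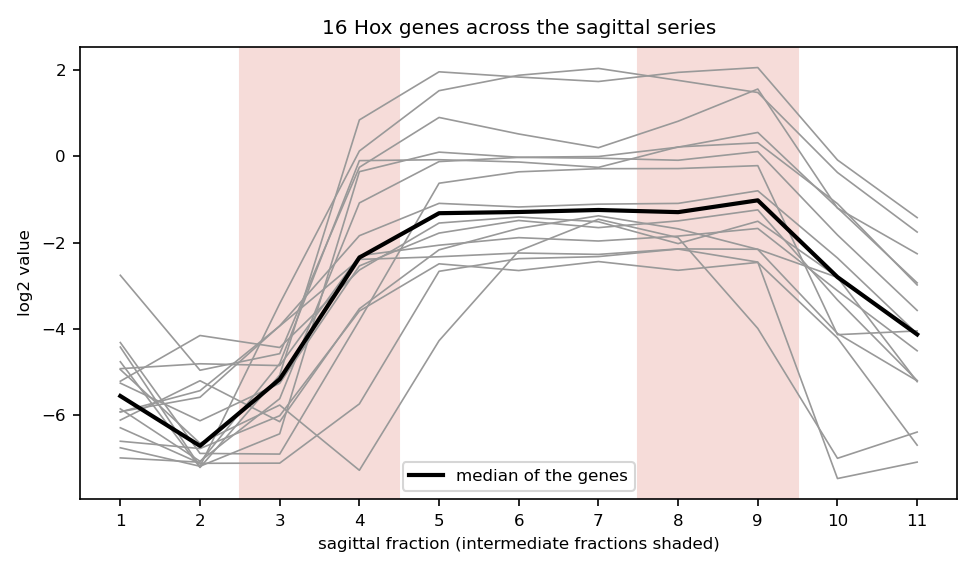
Deposited log2 values (y axis) of 16 Hox genes (grey lines) and their median (black) in the 11 sagittal fractions (x axis), with the intermediate fractions shaded. The median is -5.17 in fraction 3, where 5 of the 16 genes were well above background, and -2.35 in fraction 4, but -1.30 in fraction 8 and -1.02 in fraction 9.

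Array position on the slide moved with the intermediate group. Each slide carries 2 rows of 4 columns, and fractions 4 and 8, both intermediate, were the only sagittal arrays at column 3. In the coronal and horizontal series 227 of the 34411 probes (0.66%) stood apart at column 3, with all 6 arrays there above (61 probes) or below (166) all other arrays of their series. In the sagittal series 207 of the 227 stood apart in fractions 4 and 8 in the same direction, against 2016 of all 34411 probes apart there, and 58 lay above and 153 below both neighbours on both sides. Without these probes 3094 probes lay above and 3600 below, with non-overlapping values in 132 and 149.

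Capn11, a calpain, is such a probe, at 2.64 and 2.35 in fractions 4 and 8 and between 0.18 and 0.57 in the other 9. Medag stood at 3.84 and 3.93 against 5.46 to 5.91. No gene of the lists was represented by such a probe, and none is among the genes named before this. Sult2a8, a sulfotransferase gene with one of the largest margins below, was not among the 227 but behaved in a like manner, at -4.32 and -5.12 in fractions 4 and 8 and between -2.68 and -2.14 elsewhere, and so did Spata24, at -4.78 and -5.99 there and between -4.18 and -3.27 elsewhere. Column 4 gave 532 such probes, but its sagittal arrays, fractions 1, 5 and 9, fell in all 3 groups.

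**Figure D5:**
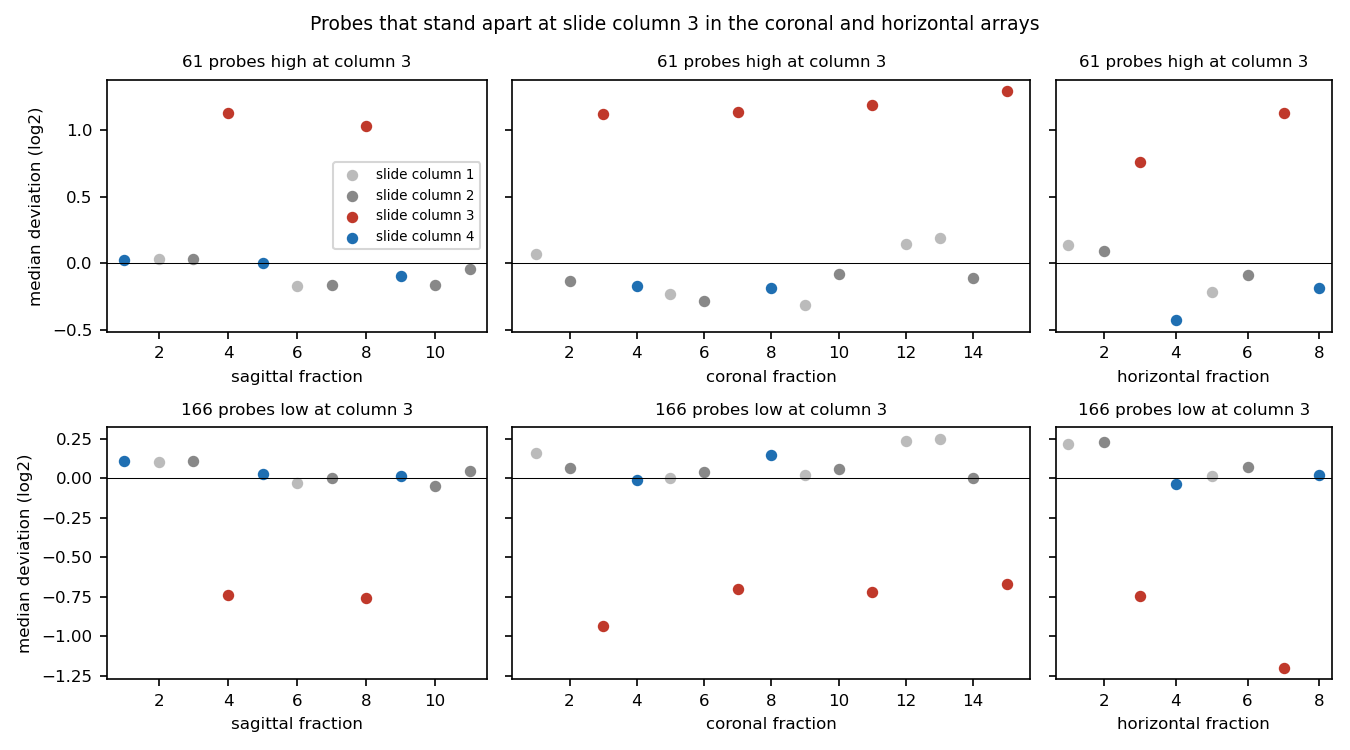
Median deviation (y axis, log2) of the 61 probes high and the 166 probes low at slide column 3, against fraction number (x axis) in the sagittal, coronal and horizontal series; each point is 1 array, coloured by slide column. Sagittal fractions 4 and 8 stand at 1.13 and 1.03 for the high and at -0.74 and -0.76 for the low probes, and the other sagittal arrays between -0.17 and 0.11.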

How the data were processed

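Fractions of P3 mouse brain were measured on Agilent single-colour arrays. The scanner files hold spot intensity values which, per the file headers, the authors extracted with Agilent Feature Extraction 10.10.1.1. The authors deposited a table of log2 values; set against the scanner files it differs from the scanner processed signals, in log2, by an offset per array that is close to the 75th percentile (to within 0.02 in 99.9% of values). Sagittal fractions were grouped by number into lateral, intermediate and medial. Probes well above background in at least 2 of 11 fractions were tested with limma 3.58.1 in R 4.3.3 on all 11 arrays, as the intermediate mean less the average of the other means, with Benjamini-Hochberg adjustment at 0.05. Tables were made with Python 3.11.15. The fit was tested on simulated data in which fractions were independent and probes had no gradient. Of 200 probes planted at 1 log2 unit 163 were recovered, with 7 false calls. Such data cannot show how the fit behaves when fractions of 1 brain are related.

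The members and gene lists were chosen with earlier results of these data known. Genes to name were those past the threshold and, because only 2 probes passed, also those with an adjusted p under 0.1 and the 15 largest margins in each direction among probes detected on all 4 intermediate (above) or all 7 other (below) arrays and not bound to slide column 3, a widening chosen after the values were seen. Alternatives numbered 24 planned, single fractions left out included, and 2 added after seeing the data, both on slide column 3. The number of arrays limits the precision. The number of unused columns of per-sample values was 0. Some genes of the lists are not reported here by name.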

Additional observations from a re-analysis of the deposited data

Results flagged for a closer look

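In 4 of 80 groups of 4 fractions tested, 1 fraction lay far from the other 3 of its group by Dixon's test, where chance gives about 1 in 20. Clca3a2 was lowest at -4.443 in fraction 8 among the intermediate fractions. 1600029I14Rik was lowest at -3.702 in fraction 8, also among the intermediate ones. Ntf3 was highest at 1.808 in fraction 11 among the lateral fractions, and Spata24 lowest at -4.18 in fraction 11. All values are log2.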

How the results depend on the processing

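Counts of probes past the limma threshold were small and moved with most settings. Against 2 higher and 0 lower probes, there were 12 and 4 with normexp background correction, 6 and 2 when a probe had to be well above background in 4 fractions, and 7 and 2 with an intensity trend, of which 12, 6 and 7 lay above and 2, 1 and 1 below both neighbours. On the fractions of slide 4 alone 1 probe was higher. It lay above the neighbours held on that slide, which has no lateral fraction on the high-numbered side. There were 0 with quantile normalization, no filter, mirror pairs as a random block or averaged, slide as a block, fractions 1 and 11 left out, a side term without fraction 6, and fractions 4 and 8 left out. Leaving out single fractions gave 0 to 11 higher and 0 to 11 lower probes, with 0 to 9 above and 0 to 11 below both neighbours.

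Counts by shape alone were 7414 above and 7537 below with mirror pairs averaged, and 5473 above on slide 4 alone. These are not counts on both sides. Averaged pairs have no opposite side, and slide 4 holds no lateral fraction on the high-numbered side. Fewer comparisons thus had to be met in these settings. Counts were 6363 below without the filter, and 2764 to 3973 above and 3123 to 4373 below with single fractions left out. Non-overlapping probes numbered 1403 above and 1405 below with mirror pairs averaged, 513 and 513 on slide 4 alone, 268 and 314 without fractions 1 and 11, 474 and 699 without fractions 4 and 8, and 262 below with the side term; single fractions left out gave 148 to 397 above and 192 to 496 below. With fewer fractions, fewer values had to be cleared.

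The list counts on slide 4 alone and with mirror pairs averaged also rest on fewer comparisons. Striatal genes above were 8 on slide 4 alone, 7 without fractions 1 and 11, and 8 to 18 with single fractions left out. Cell cycle genes were 15 with mirror pairs averaged, 1 without fractions 1 and 11, and 1 to 11. Oligodendrocyte genes were 4 without fractions 4 and 8, and 5 to 11. Single fractions left out gave 5 to 7 thalamic and 4 to 7 Schwann cell genes above and 3 to 9 ependymal genes below. The 2 probes past the threshold kept their call in 17 of 52 values under 26 settings and lost it in 35. The other 83 genes and probes followed, none of which had a call to lose, gained it in 36 of 2158 values, and 1 value reversed: Sult2a8, at 0.0045 without fractions 4 and 8. Other causes were not tested. No paired analysis was possible because the sagittal groups share no fraction number; mirrored fractions lie within 1 group, and the fits that block or average them, given before, kept 0 calls. Dim probes are limited by signal over background.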

Other observations

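The 76 genes whose intermediate values lay above all others were spread over the other planes. In the coronal series 10 of them (13.2%) were highest in fraction 11, where 4.13% of all genes were, and 7 (9.21%) in fraction 6, where 1.58% were. In the horizontal series 14 (18.4%) were highest in fraction 5 and 14 in fraction 6, against 7.32% and 5.63% of all genes, and 20 (26.3%) in fraction 8, against 13.95%. Of 81 genes whose intermediate values lay below all others and that were not bound to slide column 3, 11 (13.6%) were highest in coronal fraction 10 and 17 (21.0%) in horizontal fraction 5, against 3.09% and 7.32% of all genes. Each plane came from another mouse, and these shares are descriptions.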
